A study of Mus musculus with 4 samples.

Results

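The 51 genes described here encode the route by which a newly made secretory or membrane protein enters the endoplasmic reticulum (ER), receives its sugars and moves to the Golgi. They are the rows of the count table whose symbol names a part of the signal recognition particle and its receptor (7 genes), the translocon with the TRAP complex (10), signal peptidase (5), the oligosaccharyltransferase (7), the COPII coat (10), the COPI coat (6) or a cargo or retrieval receptor (6). All 51 were found among the 27179 genes of the table, and all 51 passed the filter on low counts. Plasmacytoid dendritic cells (pDCs), immune cells that sense viral nucleic acids in endosomes and can secrete large amounts of type I interferon, were grown from bone marrow precursors of C57BL/6 mice for 8 days in Flt3 ligand. All cultures were stimulated for 24 h with imiquimod (IMQ), a ligand of the receptor TLR7, at 1 µg/ml, and the pDCs were sorted on SiglecH and CD11b. RNA-seq was done on 2 libraries of BFP-positive cells and 2 libraries of BFP-negative cells, where BFP is the blue fluorescent protein that reports the chemokine gene Cxcl10. Not given in the labels are how the reporter allele was made, the side of the CD11b gate, and whether the 2 replicates of a group are separate mice, so p-values measure the spread between these samples, which may be technical. The population label of the BFP-negative samples names them positive for CXCL10, whereas the design text of the series names them negative, and only the BFP part was used.

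A ribosome that starts on a secretory protein is caught by the signal recognition particle and docked at the Sec61 channel, where the signal peptide is cut off and N-linked sugars are added while the chain is still being made. COPII vesicles then carry the folded protein from the ER to the Golgi, and COPI vesicles bring escaped ER proteins and cargo receptors back. Cells specialised for secretion, such as plasma cells, are known to enlarge this machinery under the transcription factor Xbp1, and pDCs are known for an extensive ER.

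The libraries held 11868254 to 12570117 counts, so that 1 count was worth 0.0788 to 0.0858 CPM (counts relative to library totals that were scaled by the TMM method). Cxcl10 had 149 and 154 counts in BFP-positive libraries, against 3 and 19 counts in BFP-negative libraries, which checks the labels and is no finding because the sort used its reporter. Of 14 pDC markers 2 rose (Siglech and Runx2, at 0.39 and 0.85 on the log2 scale) and 4 fell (Ccr9, Ly6d, Cox6a2 and Klk1, at -0.89, -0.55, -0.99 and -1.43). When 1 library was left out, Siglech ran from 0.36 to 0.42 and Runx2 from 0.62 to 1.06. Ly6d then ran from -0.67 to -0.38 and Klk1 from -1.70 to -1.075. The calls of Siglech, Runx2, Ly6d and Klk1 were each lost in at least 1 of these fits. Siglech, on which the cells were sorted, had 784 and 820 CPM in BFP-positive and 610 and 614 CPM in BFP-negative cells, and Bst2 had 1670 and 1739 CPM against 1566 and 1865 CPM. All tests are edgeR's quasi-likelihood test on the counts, BFP-positive over BFP-negative, with Benjamini-Hochberg adjustment over the 11706 genes tested and a threshold of 0.05. By this test the Siglech call lay at the threshold (adjusted p = 0.0485) and was lost without TMM scaling (adjusted p = 0.0841). Log2 fold changes are given with their standard error (SE), and a mean ± SD is over the 2 libraries of a group.

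Of the 51 secretory machinery genes, 6 fell (Lman1, Rpn1, Spcs3, Srprb, Ostc and Dad1), 1 rose (Ssr4) and 44 did not pass the test. Their log2 fold changes were mostly small and below 0. The 6 that fell are 11.8% of the members, where 3.51% of all tested genes fell, and the 1 that rose is 1.96%, where 7.60% of all tested genes rose. Abundant genes were called more often, however, and among the 1023 tested genes with a mean level at or above the members' median of 194 CPM, 10.7% fell and 14.2% rose. At that level there were 26 members, of which 5 fell and 1 rose, 24 had a log2 fold change below 0 (52.9% of the 1023 genes) and 17 had both BFP-positive libraries below both BFP-negative ones (33.7% of the 1023 genes, with 33.6% the other way). The log2 fold change was below 0 in 45 of the 51 members (88.2%), against 51.8% of all tested genes, and the median was -0.28, against -0.02 over all tested genes. In 30 members (58.8%) both BFP-positive libraries lay below both BFP-negative ones, which was so in 27.1% of all tested genes. The reverse held for Ssr4 alone among the members and for 27.1% of all tested genes. Summed over the 51 genes, the level was 14806 and 14484 CPM in BFP-positive cells, against 17552 and 17615 CPM in BFP-negative cells, which is 1.41% to 1.46% and 1.78% to 1.82% of the counts. These are levels per library, so that a smaller share of secreting cells and less RNA per cell cannot be told apart. The number of members that fell was 2 without BFP-positive replicate 2, 10 by DESeq2 or when the TMM scaling was left out, and 13 (edgeR) or 14 (limma-voom) with the replicate number as a block. These counts stand here without the share of all tested genes that fell in the same fits. Both libraries of a number share a code in their titles whose meaning the labels do not give. The block leaves 1 residual degree of freedom. Leaving out a library leaves 1 in its group and 1 residual degree of freedom, so that the lone library is assumed to vary like the other group.

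**Figure D1:**
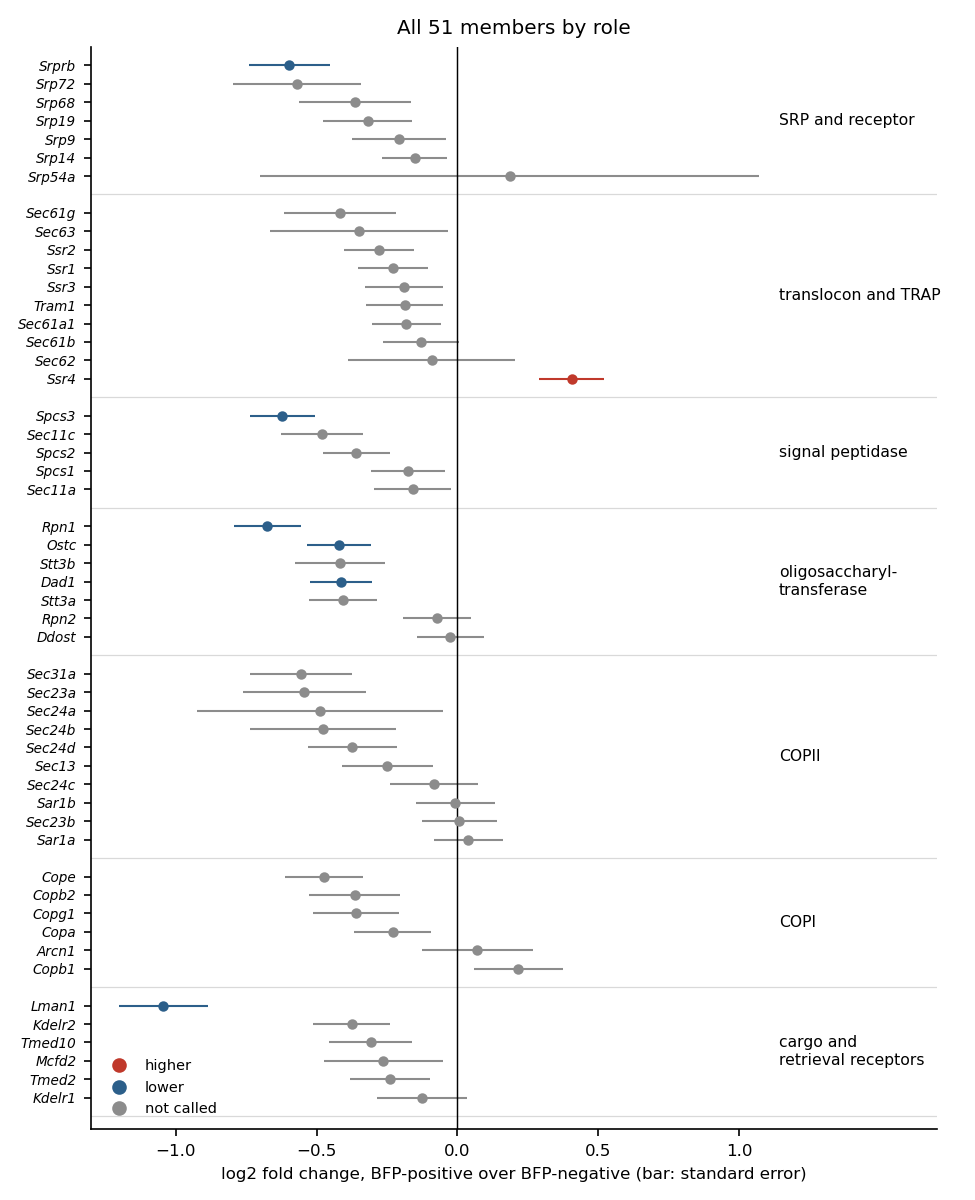
Log2 fold change, BFP-positive over BFP-negative, of each of the 51 members, grouped by role, with bars for the standard error; blue points fell, red points rose and grey points did not pass the test. Of the points, 45 lie left of 0, with Lman1 farthest left at -1.04 and Ssr4 farthest right at 0.41.

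**Figure D2:**
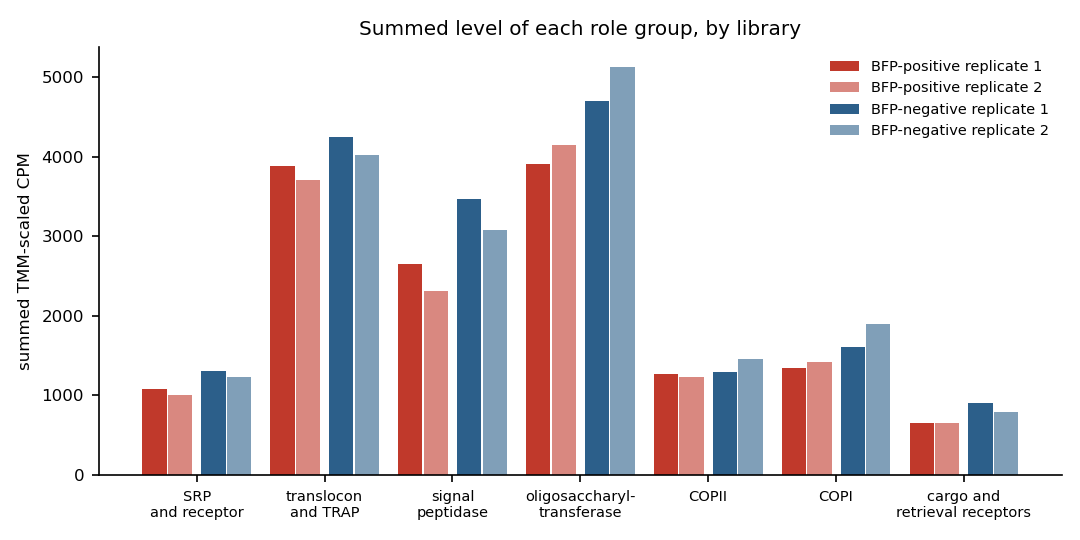
Summed TMM-scaled CPM of each role group in each of the 4 libraries, with the BFP-positive pair left of the BFP-negative pair. In each of the 7 groups both BFP-positive bars are lower than both BFP-negative bars, with the smallest ratio of means (BFP-negative over BFP-positive) in the translocon and TRAP group, at 1.09, and the largest in signal peptidase, at 1.32.

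The signal recognition particle binds the signal sequence as it leaves the ribosome. Of its 7 genes, 1 fell and none rose. Srprb (Entrez gene 20818, chromosome 9, 103188033 to 103202065 on GRCm38), the membrane anchor of the particle's receptor, had 170.1 and 169 CPM in BFP-positive cells, against 230.0 and 283 CPM in BFP-negative cells. The BFP-positive values were nearly equal and lay below both BFP-negative values (log2 fold change -0.60, SE 0.14, adjusted p = 0.0244 by edgeR's quasi-likelihood test). That call was lost without BFP-positive replicate 1, BFP-positive replicate 2 or BFP-negative replicate 2 (adjusted p = 0.0900, 0.104 and 0.128). Srp72, which forms the protein core of the particle with Srp68, had 33.4 and 44.2 CPM against 66.4 and 48.8 CPM, apart between the groups but not past the threshold (log2 fold change -0.57, SE 0.23, adjusted p = 0.151). Srp9, Srp14, Srp19 and Srp68 had log2 fold changes of -0.37 to -0.15, and Srp9 overlapped between the groups. Per length, Srp14 was the most abundant of the 7 at 609 ± 27.7 RPKM in BFP-positive and 708 ± 50.6 RPKM in BFP-negative cells (reads per kilobase relative to the library's reads, from the deposited values taken out of the log). Srp54a, the GTPase that holds the signal sequence, was the least abundant at 0.366 ± 0.205 and 0.338 ± 0.00290 RPKM. It had 11 and 27 counts in BFP-positive and 17 and 18 counts in BFP-negative libraries. The mouse genome carries near-identical copies of that gene, of which Srp54b had 0 to 3 and Srp54c 24 to 46 counts in a library. Few reads were thus assigned to any of these copies. Reads that match more than 1 copy may be split or lost, so the level of Srp54a is uncertain.

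Inside the ER membrane, Sec61a1 forms the channel with the small subunits Sec61b and Sec61g, while Sec62 and Sec63 help chains that enter after synthesis and Tram1 assists insertion. None of these 6 genes passed the test, and their log2 fold changes were -0.42 (Sec61g), -0.35 (Sec63), -0.19 (Tram1), -0.18 (Sec61a1), -0.13 (Sec61b) and -0.09 (Sec62). Sec61b was the most abundant of the translocon and TRAP genes per length, at 1095 ± 94.6 RPKM in BFP-positive and 1254 ± 214 RPKM in BFP-negative cells, and its groups overlapped. At the low end Sec63 had 2.19 ± 0.372 and 2.92 ± 0.518 RPKM. Sec61a1 and Sec61g were lower in both BFP-positive libraries than in either BFP-negative library, at 582 and 679 against 684 and 745 CPM for Sec61a1 and 58.6 and 44.0 against 72.5 and 64.4 CPM for Sec61g. The TRAP complex sits beside the channel and helps some signal sequences open it. Its subunit Ssr4 (Entrez gene 20832, chromosome X, 73787023 to 73790828) was the only one of the 51 members that rose, with 545 and 563 CPM in BFP-positive cells, against 405 and 431 CPM in BFP-negative cells. The pairs were tight and apart (log2 fold change 0.41, SE 0.12, adjusted p = 0.0493 by edgeR's quasi-likelihood test), but the call lay at the threshold. It was lost without any 1 library, with adjusted p = 0.184 and 0.260 without BFP-positive replicates 1 and 2 and 0.134 and 0.0501 without BFP-negative replicates 1 and 2, and also without TMM scaling (log2 fold change 0.34, adjusted p = 0.0807). The other TRAP subunits Ssr1, Ssr2 and Ssr3 had log2 fold changes of -0.23, -0.28 and -0.19, each apart in the opposite direction to Ssr4 and none past the threshold. Within a library the RPKM of Ssr4 was 1.35 and 1.54 times that of Ssr2 in BFP-positive cells, against 0.934 and 0.863 times in BFP-negative cells.

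Signal peptidase removes the signal sequence. Of its 5 genes, 1 fell. Spcs3 (Entrez gene 76687, chromosome 8, 54520433 to 54529998), an accessory subunit needed for the enzyme to work, had 451 and 441 CPM in BFP-positive cells, against 714 and 657 CPM in BFP-negative cells. The groups were well apart, with a 1.54-fold higher mean in BFP-negative cells and a log2 fold change of -0.62, SE 0.12 (adjusted p = 0.00708 by edgeR's quasi-likelihood test). Without BFP-positive replicate 2 the adjusted p was 0.0550. Sec11c, one of the 2 catalytic subunits, was the most abundant gene of the enzyme per length at 756 ± 142 RPKM against 1104 ± 145 RPKM, and its groups were apart at 671 and 519 against 896 and 764 CPM. It did not pass as tested (-0.48, SE 0.15, adjusted p = 0.0636) but did under 8 of the 12 alternatives, among them leaving out BFP-positive replicate 1 or BFP-negative replicate 2 (adjusted p = 0.0252 and 0.0223). Sec11a, the other catalytic subunit, had a log2 fold change of -0.16 with overlapping groups. Of the RPKM of both, Sec11c made up 77.6% and 76.5% in BFP-positive cells and 81.6% and 79.9% in BFP-negative cells. Spcs2 was apart between the groups at -0.36, SE 0.12 (adjusted p = 0.0834), and Spcs1 overlapped at -0.18.

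The oligosaccharyltransferase moves a preformed glycan onto asparagines of the growing chain, and it held 3 of the 6 genes that fell. Rpn1 (Entrez gene 103963, chromosome 6, 88084473 to 88105304), ribophorin I, had 418 and 434 CPM in BFP-positive cells, against 638 and 721 CPM in BFP-negative cells. Both BFP-positive libraries were far below the BFP-negative ones (log2 fold change -0.67, SE 0.12, adjusted p = 0.00554 by edgeR's quasi-likelihood test), and the call was kept under all 12 alternatives (adjusted p 3.39e-06 to 0.0342). Dad1 (Entrez gene 13135, chromosome 14, 54235485 to 54253929), a small subunit first known as a defender against cell death, had 592 and 594 CPM against 802 and 779 CPM. Its replicates differed little in either group (log2 fold change -0.41, SE 0.11, adjusted p = 0.0375). Ostc (Entrez gene 66357, chromosome 3, 130695917 to 130709444), which ties the Stt3a form of the enzyme to the translocon, had 432 and 418 CPM against 560.1 and 577 CPM (-0.42, SE 0.11, adjusted p = 0.0412). The calls of Dad1 and Ostc were lost without any 1 library, with adjusted p of 0.0647 to 0.214 for Dad1 and 0.0660 to 0.263 for Ostc. The 2 catalytic subunits, Stt3a at the channel and Stt3b for sites missed there, had nearly the same log2 fold change of -0.41, SE 0.12 (adjusted p = 0.0573) and -0.42, SE 0.16 (adjusted p = 0.133), and both were apart between the groups. Stt3a made up 84.8% and 84.3% of the RPKM of the pair in BFP-positive and 86.0% and 82.9% in BFP-negative cells.

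By contrast Ddost and Rpn2, which belong to the same complex, overlapped between the groups. Ddost, the most abundant oligosaccharyltransferase gene per length at 697 ± 23.3 RPKM in BFP-positive and 741 ± 84.6 RPKM in BFP-negative cells, had a log2 fold change of -0.02, SE 0.12, and Rpn2 of -0.07, SE 0.12. The least abundant was Stt3b, at 38.4 ± 5.06 and 53.6 ± 7.43 RPKM. The RPKM of Rpn1 was 0.925 and 0.885 times that of Rpn2 in BFP-positive libraries, against 1.33 and 1.42 times in BFP-negative libraries. Of 13 such ratios computed between members, 10 did not overlap between the groups, while Cope over Copa, Sec31a over Sec13 and Sec61b over Sec61a1 did. No share was taken for ratios between other genes, and of single tested genes 27.1% were apart in each direction. Many of the 13 ratios have a called member on top, some of them more than once, so the count largely restates the calls. Ratios of this kind do not depend on how libraries are scaled, but the pairs were chosen after their values were seen and were not tested, since an exact permutation test of 2 against 2 cannot go below p = 0.333.

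**Figure D3:**
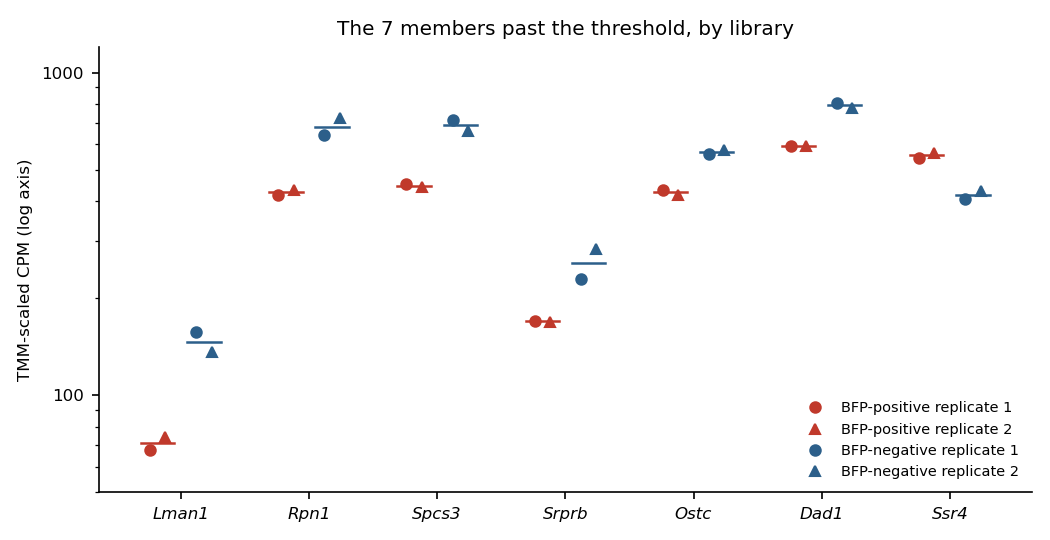
TMM-scaled CPM (log axis) of the 7 members past the threshold in each library, with a line at the mean of each group; BFP-positive libraries are red and left of the BFP-negative ones in blue. The 6 genes from Lman1 to Dad1 are lower in both BFP-positive libraries, and Ssr4 is higher in both.

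The bases before the start sites of some called members, and of Sec24d, which was not called, are shown to set the letters they carry beside their direction. RefSeq promoter windows on GRCm38.p6 were found for 39 of the 51 members and not for Arcn1, Kdelr2, Lman1, Ostc, Sec11c, Sec61a1, Spcs3, Srp19, Srp68, Ssr2, Tmed2 and Tram1. Each stretch is the 250 bases up to the start site, 5′ to 3′ on the gene's strand, for 3 members that fell, for Ssr4 and for Sec24d, whose window held the UPRE. Capitals mark the CCAAT box on either strand, and likewise the motif that reads CCACG and the longer one that reads TGACGTGG.
Rpn1: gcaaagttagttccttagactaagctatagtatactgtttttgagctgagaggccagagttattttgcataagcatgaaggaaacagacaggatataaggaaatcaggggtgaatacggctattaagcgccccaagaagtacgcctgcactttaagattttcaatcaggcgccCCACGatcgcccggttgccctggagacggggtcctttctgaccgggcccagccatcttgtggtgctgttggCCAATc
Srprb: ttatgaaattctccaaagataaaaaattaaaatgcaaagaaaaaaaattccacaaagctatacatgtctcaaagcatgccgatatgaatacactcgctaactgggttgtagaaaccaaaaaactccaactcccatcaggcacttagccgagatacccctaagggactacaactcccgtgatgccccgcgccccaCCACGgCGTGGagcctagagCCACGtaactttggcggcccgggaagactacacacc
Dad1: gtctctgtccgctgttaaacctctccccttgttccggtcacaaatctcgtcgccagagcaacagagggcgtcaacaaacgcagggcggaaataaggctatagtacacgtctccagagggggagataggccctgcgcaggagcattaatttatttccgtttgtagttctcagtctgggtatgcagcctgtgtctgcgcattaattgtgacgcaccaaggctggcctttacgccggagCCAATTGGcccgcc
Ssr4: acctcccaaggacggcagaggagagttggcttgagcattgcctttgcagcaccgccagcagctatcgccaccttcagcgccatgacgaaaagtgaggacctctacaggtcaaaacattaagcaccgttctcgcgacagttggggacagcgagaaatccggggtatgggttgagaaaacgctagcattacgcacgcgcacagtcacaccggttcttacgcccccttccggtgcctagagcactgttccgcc
Sec24d: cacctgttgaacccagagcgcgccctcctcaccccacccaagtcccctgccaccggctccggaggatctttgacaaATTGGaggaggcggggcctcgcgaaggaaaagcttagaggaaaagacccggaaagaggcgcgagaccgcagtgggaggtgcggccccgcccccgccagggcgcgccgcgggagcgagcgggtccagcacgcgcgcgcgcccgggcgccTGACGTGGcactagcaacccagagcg
These lie at chr6:88084223-88084472 (plus strand), chr9:103202066-103202315 (minus), chr14:54253930-54254179 (minus), chrX:73786773-73787022 (plus) and chr3:123267246-123267495 (plus). Motifs were searched on both strands in the windows of 27025 genes. These include genes that did not pass the filter on low counts, unlike the members, and no share over the tested genes was taken. The unfolded protein response element bound by Xbp1 and Atf6 (UPRE), TGACGTGG, was in 2 of 39 (5.13%), Sec24d and Copb1, against 0.603% of all genes. In Sec24d it lay at -26 to -19 and in Copb1 at -28 to -21 from the start site. The Sec24d window lies inside the gene's RefSeq span, which begins at 123264801, so its start site is not the first of that gene. Neither gene passed the test, with log2 fold changes of -0.37 for Sec24d and 0.22 for Copb1. The UPRE was in 0 of the 3 members that fell and had a window. Its letters hold CCACG on the other strand, so each match also counts there. The cAMP response element, TGACGTCA, was in 1 of 39 (2.56%), Cope, against 1.77%. Short motifs were common. CCAAT was in 15 of 39 (38.5%) against 37.5% of all genes, whereas the motif that reads CCACG was in 20 of 39 (51.3%) against 31.0%. Of the windows shown, Rpn1 held CCAAT at -6 to -2 and CCACG at -77 to -73, Srprb held CCACG at 3 places from -56 to -32, and Ssr4 held neither. A match is a description of these letters and not a bound site.

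COPII coats bud from the ER when the GTPase Sar1 recruits the inner layer of Sec23 and Sec24 and the outer cage of Sec13 and Sec31. None of the 10 COPII genes passed the test in either direction, although Sec31a did with the replicate block (adjusted p = 0.0420 by edgeR). With that block more of all tested genes fell. Sec31a had 49.2 and 60.6 CPM in BFP-positive cells, against 83.4 and 78.1 CPM in BFP-negative cells, apart between the groups (log2 fold change -0.56, SE 0.18, adjusted p = 0.0790). Sec23a had 24.9 and 24.6 CPM against 37.1 and 35.0 CPM, apart as well (-0.54, SE 0.22, adjusted p = 0.153). Its paralog Sec23b, at 172 and 179 CPM against 178 and 172 CPM, overlapped between the groups with a log2 fold change of 0.01, SE 0.13. Sec23b made up 90.7% and 91.1% of the RPKM of the pair in BFP-positive cells, against 87.1% and 87.4% in BFP-negative cells, so the 2 groups did not overlap in that share. The cargo-selecting Sec24 genes ranged from -0.49 (Sec24a) to -0.08 (Sec24c), with Sec24b and Sec24d apart. Among the 4, Sec24c held the largest share of RPKM, 56.0% and 53.4% in BFP-positive and 47.1% and 51.4% in BFP-negative cells. Sar1a and Sar1b did not move beyond their error, at 0.04, SE 0.12 and -0.01, SE 0.14, and the sign of each depended on the scaling of the libraries. Sec13, the most abundant COPII gene per length at 215 ± 9.71 and 266 ± 59.3 RPKM, overlapped between the groups, as BFP-negative replicate 1 (281 CPM) lay within the BFP-positive range of 278 to 293 CPM while BFP-negative replicate 2 had 397 CPM. The least abundant was Sec24a at 1.22 ± 0.676 and 1.79 ± 0.294 RPKM.

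**Figure D4:**
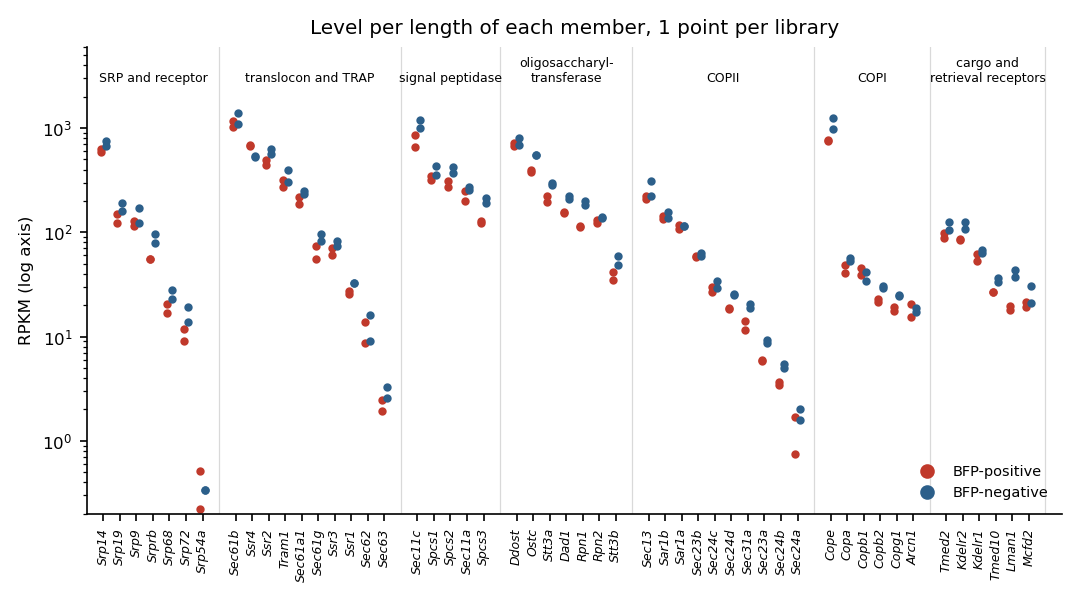
RPKM (log axis) of each member, 1 point per library, ordered within each role group by abundance; BFP-positive points are left of the BFP-negative ones. Srp54a is lowest, and Sec61b, Sec11c and Cope are highest, with BFP-negative means of 1254, 1104 and 1113 RPKM.

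COPI coats carry material from the Golgi back to the ER, and none of the 6 COPI genes passed the test. Cope, the epsilon subunit and by far the most abundant at 767 ± 9.96 RPKM in BFP-positive and 1113 ± 201 RPKM in BFP-negative cells, was closest. It had 799 and 822 CPM against 968 and 1284 CPM, where the BFP-negative pair differed most (log2 fold change -0.47, SE 0.14, adjusted p = 0.0569). It passed when BFP-negative replicate 1 was left out (-0.66, adjusted p = 0.00254), whereas leaving out BFP-negative replicate 2 gave -0.23 (adjusted p = 0.321). With the replicate block the adjusted p was 0.00659. More of all tested genes fell with that block, and whether the replicate numbers pair the samples is not known. Copb2, Copg1 and Copa were apart between the groups at -0.37, -0.36 and -0.23. Copb1, the beta subunit, overlapped at 0.22, SE 0.16, and Arcn1, the delta subunit and least abundant at 17.9 ± 3.75 and 17.9 ± 1.22 RPKM, at 0.07, SE 0.20.

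Cargo receptors select proteins into the vesicles. Lman1 (Entrez gene 70361, chromosome 18, 65980739 to 66002635), a mannose-binding lectin that carries glycoproteins out of the ER, showed the largest fold of the 51 members. It had 67.7 and 74.3 CPM in BFP-positive cells, against 157 and 136 CPM in BFP-negative cells, a level 2.06-fold higher in the BFP-negative cells. The groups were far apart (log2 fold change -1.04, SE 0.16, adjusted p = 0.00234 by edgeR's quasi-likelihood test), and the call was kept under all 12 alternatives, with log2 fold changes of -1.13 to -0.93. Mcfd2, the soluble partner of Lman1 for coagulation factors, overlapped in CPM at 47.7 ± 3.31 CPM in BFP-positive and 57.2 ± 13.4 CPM in BFP-negative cells (SD, n = 2 each; log2 fold change -0.26, SE 0.21) and was the least abundant gene of its group, at 20.5 ± 1.56 and 25.8 ± 6.48 RPKM. The RPKM of Lman1 was 0.830 and 1.00 times that of Mcfd2 in BFP-positive libraries and 1.44 and 1.74 times in BFP-negative libraries. Kdelr1 and Kdelr2 return ER residents that carry a retrieval signal. Kdelr2 was apart between the groups at 164 and 162 against 226 and 196 CPM (-0.38, SE 0.14, adjusted p = 0.115), and Kdelr1 overlapped at -0.13, SE 0.16. The p24 proteins Tmed2 and Tmed10, which shape vesicles and carry anchored cargo, were apart at -0.24, SE 0.14 and -0.31, SE 0.15. Tmed2 was the most abundant gene of the group per length, at 92.8 ± 7.74 and 115 ± 14.5 RPKM.

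**Figure D5:**
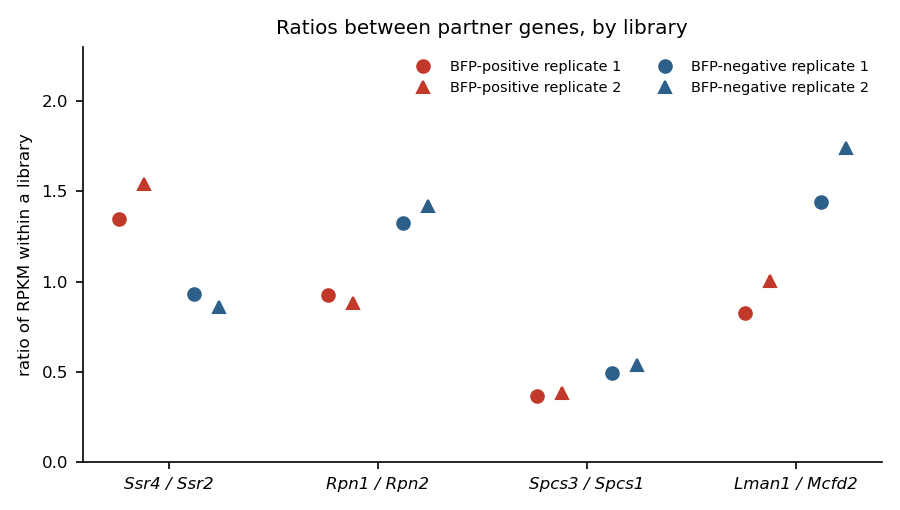
Ratio of the RPKM of 2 genes of the same complex within each library, for 4 pairs chosen after their values were seen; BFP-positive libraries are left of the BFP-negative ones. The ratio of Ssr4 to Ssr2 is higher, and those of Rpn1 to Rpn2, Spcs3 to Spcs1 and Lman1 to Mcfd2 are lower, in both BFP-positive libraries.

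The rest of the pathway was read from 11 lists with 163 genes, of which 153 were tested. Like the members, these lists were chosen with earlier results of these data known, so their shares are a description and no independent support. Of the 153, 17 fell (11.1%, against 3.51% of all tested genes) and 1 rose (0.654%, against 7.60%). Abundant genes were called more often, with 8.64% lower among tested genes at or above 82 CPM and 10.7% at or above 194 CPM. No share was taken for genes at the lists' own levels. The median log2 fold change of the 153 was -0.19, against -0.02 over all tested genes. The calls of Hspa5, Dnajc3, Mogs, Man1a, Ergic1 and Tmed9, and that of Tmed3, were kept under all 12 alternatives, whereas 11 of the 17 were lost without at least 1 library. Among other cargo receptors and p24 genes 5 of 20 tested fell and 1 rose. Tmed9 had 146 and 117 CPM in BFP-positive cells, against 335 and 301 CPM in BFP-negative cells (log2 fold change -1.28, SE 0.15, adjusted p = 0.000495), and Ergic1 was at -0.82, SE 0.12. The gene that rose was the p24 member Tmed3, at 527 and 542 CPM against 330.3 and 352 CPM (0.65, SE 0.12). Among other translocation genes 3 of 12 fell. Hspa5, which encodes the ER chaperone BiP that pulls chains through the channel, had 1048 and 884 CPM against 1687 and 1493 CPM (-0.72, SE 0.12, adjusted p = 0.00473), and the co-chaperone gene Dnajc3 was at -0.86, SE 0.13. For N-glycan trimming and lectin chaperones 4 of 12 fell, led by the glucosidase gene Mogs (-0.85, SE 0.14) and the mannosidase gene Man1a (-0.89, SE 0.15). The calls of the other two, Man1a2 and Uggt1, were both lost without BFP-positive replicate 1 or 2 or BFP-negative replicate 1, and that of Uggt1 also without BFP-negative replicate 2 or with no filter on low counts. Single genes fell among the other oligosaccharyltransferase subunits (Krtcap2, 1 of 5), the lipid-linked oligosaccharide genes (Alg8, 1 of 21) and the other COPII genes (Bet1, 1 of 20). Each of these 3 calls was lost without BFP-positive replicate 1 or 2 (adjusted p = 0.0594 and 0.199 for Krtcap2, 0.0724 and 0.0866 for Alg8, 0.0634 and 0.189 for Bet1), and those of Krtcap2 and Bet1 also without BFP-negative replicate 1 (0.0650 and 0.144). No gene passed among 11 of the ER membrane complex, 7 of the Get pathway, 18 other COPI and ARF genes and 14 TRAPP genes, whose medians were -0.08, -0.07, -0.16 and 0.11. Of 13 tested regulators of secretory capacity, Xbp1 and Mbtps1 fell. Xbp1 had 1750 and 1577 CPM in BFP-positive cells, against 2559 and 2515 CPM in BFP-negative cells (-0.61, SE 0.10, adjusted p = 0.00479, and 0.0593 without BFP-positive replicate 2). Mbtps1, the protease that activates Atf6, was at -0.70, SE 0.18, and its call was lost without BFP-positive replicate 1 or BFP-negative replicate 2 (adjusted p = 0.243 and 0.0984).

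Genes listed as markers of other cell types moved with the groups as well, where 3.51% of all tested genes fell and 7.60% rose. Which of the sorted cells expressed them was not tested. Of 12 tested B and plasma cell markers 6 fell, among them Mzb1, Iglc2, Cd79a, Jchain and Igkc, of which pDCs are also known to express Mzb1. These named genes had log2 fold changes of -2.86 (Cd79a) to -0.69 (Igkc), and 11 of the 12 were below 0. When 1 library was left out, Igkc ran from -0.87 to -0.53 and Jchain from -2.68 to -2.03. Each of these 2 calls was lost in 1 of these fits. The plasma cell receptor gene Tnfrsf17 had no count in any library. The 14 markers summed to 2352 to 2430 CPM in BFP-positive cells, against 3069 to 3250 CPM in BFP-negative cells. The 14 pDC markers, with a median log2 fold change of -0.22, summed to 19305 to 20213 CPM against 24281 to 28845 CPM. Of 11 tested conventional dendritic cell markers 4 rose and 1 fell, 10 were above 0 and the median log2 fold change was 0.83. The 12 markers summed to 2050 to 2169 CPM against 2171 to 2240 CPM. Cd8a, at -0.44, was the only tested one below 0, so this lower sum does not describe the other markers of the list. The calls of Cd8a and of Itgax, which rose, were lost without at least 1 library. That of Clec4a2, which rose, was lost by DESeq2's Wald test (adjusted p = 0.102). Of 10 tested monocyte and macrophage markers 6 rose and 2 fell, with a median log2 fold change of 1.46, and the 11 markers, with Mertk at no count, summed to 1457 to 1643 CPM against 726 to 869 CPM. Their part in the lower summed level of the secretory machinery genes was not tested.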

How the data were processed

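Per the labels' protocols, full-length cDNA libraries were made with a SMART-Seq kit from column-purified RNA. The kit marks neither strand nor single molecules. The authors deposited raw counts per gene, without normalization, and log2 RPKM values for each library. Subread, featureCounts and limma and the builds GRCm38 and mm10 are named in the submitters' processing notes; their versions and the settings for strand and for multi-mapping reads are not given in the sources used here. Each deposited log2 RPKM value equals the count plus a prior count of 0.25, divided by the library total and 1 length per gene, to within 0.272% over the 10422 genes with 10 or more counts in each library. RPKM is thus not TMM-scaled and serves comparisons between genes, while CPM serves comparisons between libraries.

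Genes were kept by filterByExpr of edgeR 4.0.16 in R 4.3.3 (minimum count 10, minimum total 15), scaled by TMM (factors 0.973 to 1.04) and tested with glmQLFit and glmQLFTest, two-sided, with the group as the only term and 2 residual degrees of freedom; the biological coefficient of variation was 24.7%. The SE is the log2 fold change divided by the square root of F. Replicates were separate libraries, since chi-square over its degrees of freedom was 14.9 for BFP-positive and 18.9 for BFP-negative cells. Alternatives were DESeq2 1.42.0, limma-voom (limma 3.58.1), library totals, other filters, robust dispersion, a replicate block and leaving out each library. The values of 1 marker gene are not reported here. The members and lists were chosen with earlier results of these data known. Described in full are members past the threshold, members apart between the groups with a log2 fold change of at least 0.5 in size, and the most and least abundant of each role group; of other lists, at most the 2 genes with the smallest p in each direction. Positions and promoters are RefSeq's on GRCm38.p6. In GENCODE's annotation of GRCm38, exons of 11 members overlap a gene on the other strand (Rpn1 a microRNA, Copa, Rpn2 and Spcs1 a coding gene), so their reads cannot be told apart there, and Srprb overlaps a coding gene on its own strand. Many members also have processed pseudogenes that may take reads.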

Additional observations from a re-analysis of the deposited data

How the results depend on the processing

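The calls of Lman1 and Rpn1 were kept under all 12 alternatives, and 26 of the 51 members kept their direction and their side of the threshold under all of them. Over the alternatives 41 to 47 members had a log2 fold change below 0, against 45 as reported. By DESeq2 and by library totals alone 10 members fell, in both cases the 6 reported and Cope, Sec11c, Spcs2 and Stt3a, and by library totals 0 rose. How many of all tested genes fell in these 2 fits is not given, so the 10 stands without a background. The median log2 fold change of all tested genes was -0.09 by library totals, against -0.02 as reported. With the replicate number as a block 13 members fell in edgeR and 14 in limma-voom, the 6 reported among them, and 760 and 826 of all genes fell; the members added in both were Cope, Kdelr2, Sec11c, Sec31a, Spcs2, Stt3a and Stt3b. Same-numbered libraries share a title code of unstated meaning, so whether the numbers pair the samples is not known, and deviations from the group means correlated at 0.0594 between same-numbered libraries. Without 1 library, 2 to 6 members fell and 0 rose, and of all genes 559 to 921 rose and 245 to 408 fell; the low counts came without BFP-positive replicate 2 (2 members, 559 genes higher) and without BFP-positive replicate 1 (245 genes lower). The sign changed under an alternative for 12 members, none past the threshold. The sign of Sec23b and Sar1a turned by library totals (-0.0585 and -0.0257), and that of Sar1b by DESeq2 (0.0015). Without 1 library the log2 fold change ran from -0.40 to 0.0437 for Srp9, -0.55 to 0.67 for Srp54a, -0.26 to 0.0424 for Sec61b, -0.46 to 0.38 for Sec62, -0.15 to 0.14 for Ddost, -0.0173 to 0.0350 for Sec23b, -0.21 to 0.0769 for Sec24c, -0.47 to 0.0417 for Sec13, -0.0154 to 0.10 for Sar1a, -0.11 to 0.13 for Sar1b, -0.17 to 0.28 for Arcn1 and -0.46 to 0.0025 for Mcfd2. The cause of these shifts was not tested. Depth limits Srp54a most among the members, with 11 to 27 counts in a library.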
